A study of Mus musculus with 2208 samples.

Results

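The 38 genes described here are antiviral effectors that interferon switches on, taken by symbol and without the Irf and Stat factors, the nucleic acid sensors, the interferon-inducible GTPases or the MHC genes. All 38 were among the 23951 genes of the deposited table, and 37 passed the filter on low values, which only Ifitm1 failed. They were followed cell by cell in the hippocampus, in cells sorted by CD11b and CD45, surface proteins of microglia and other myeloid cells. The study asked how microglia change while neurodegeneration proceeds in the CK-p25 mouse. In this mouse, forebrain neurons make p25 (a fragment that overactivates Cdk5, a kinase) once a transgene driven through the CaMKII promoter is induced, and the microglia are not the cells meant to express it. The labels name the strains CK and CKp25, and the design text calls the CK mice control littermates.

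Each of 8 groups held the cells of one strain at one week. CK and CKp25 mice were taken before induction (0 weeks, 3 months of age) and 1 week (3 months and 1 week), 2 weeks (3 months and 2 weeks) and 6 weeks after it (4 months and 2 weeks). There were 3 mice in each group and 4 in CKp25 at 6 weeks, 25 mice in all, and each mouse was taken at a single time. The labels do not state the sex of the mice. Nothing beyond the mouse number describes the single mice, so p-values measure the spread between the labelled mice.

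Type I interferon binds a receptor on the cell surface, and kinases at the receptor then activate transcription factors that bind the interferon-stimulated response element (ISRE) in the promoters of target genes. The products act at many steps of a viral life cycle. IFIT proteins and the kinase Eif2ak2 (PKR) block translation, the oligoadenylate synthetases activate an RNase, the IFITM proteins act at membrane fusion, and the Mx proteins trap viral particles. Microglia, the resident macrophages of the brain, are known to switch on such genes in infection and in neurodegeneration.

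Promoter sequence is shown first, as a description of the members, and whether a motif went with a change in level was not tested. Windows from 250 bases before to 50 bases after a start site (RefSeq, GRCm38.p6) were found for 29 of the 38 genes, in 35 windows. None was found for Rtp4, Usp18, Mx1, Ifi27l2a, Ly6e, Oas2, Parp9, Mx2 or Parp14. A core of the ISRE, GAAANNGAA on one strand or TTCNNTTTC on the other, with overlapping matches allowed, stood in a window of 14 of the 29 genes (48.3%). Of all 27025 genes with a window, 9.76% held it, and of all 32851 windows 8.56%. A core of the gamma-activated site, TTCNNNGAA, which reads the same on both strands, stood in 8 of the 29 (27.6%), against 9.55% of all genes. A match describes letters in these 300 bases and shows no binding. The windows below carry 3, 3, 3 and 2 ISRE matches, in capitals. Ifit1, Ifit3 and Isg15 were the members with the most matches, and Ifitm3 had the largest difference at 2 weeks of the members with a window.
Ifit1 (chr19:34640639-34640938, plus strand): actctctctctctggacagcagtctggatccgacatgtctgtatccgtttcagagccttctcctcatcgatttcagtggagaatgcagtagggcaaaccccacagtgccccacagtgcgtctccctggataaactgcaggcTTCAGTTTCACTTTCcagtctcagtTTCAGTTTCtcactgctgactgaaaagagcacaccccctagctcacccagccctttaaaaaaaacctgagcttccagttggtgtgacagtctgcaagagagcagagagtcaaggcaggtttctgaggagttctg
Ifit3 (chr19:34583279-34583578, plus strand): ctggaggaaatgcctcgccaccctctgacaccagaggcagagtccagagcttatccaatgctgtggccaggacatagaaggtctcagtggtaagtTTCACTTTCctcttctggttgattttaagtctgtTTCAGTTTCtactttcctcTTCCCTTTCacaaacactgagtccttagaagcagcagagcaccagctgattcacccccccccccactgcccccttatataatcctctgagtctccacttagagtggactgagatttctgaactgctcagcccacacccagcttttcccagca
Isg15 (chr4:156200769-156201068, minus strand): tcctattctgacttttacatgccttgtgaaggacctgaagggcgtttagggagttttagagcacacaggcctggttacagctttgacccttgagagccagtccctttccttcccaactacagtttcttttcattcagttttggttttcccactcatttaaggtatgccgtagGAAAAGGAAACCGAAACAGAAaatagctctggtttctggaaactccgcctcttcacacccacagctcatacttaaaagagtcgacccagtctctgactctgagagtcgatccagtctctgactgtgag
Ifitm3 (chr7:141010695-141010994, minus strand): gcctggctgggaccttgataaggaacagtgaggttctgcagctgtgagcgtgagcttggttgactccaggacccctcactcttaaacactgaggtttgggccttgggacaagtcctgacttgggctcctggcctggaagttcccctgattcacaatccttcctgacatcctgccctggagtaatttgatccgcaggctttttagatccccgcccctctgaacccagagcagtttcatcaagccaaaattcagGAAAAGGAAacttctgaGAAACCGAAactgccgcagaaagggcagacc
The matches in Ifit1 began 109, 103 and 84 bases before the start site, and those in Isg15 began 78, 72 and 66 bases before it and overlap in one run. In Ifit3 they began 155, 121 and 102 bases before the start site. In Ifitm3 they lay after it, beginning 2 and 19 bases downstream. The other 10 genes with a match were Bst2, Eif2ak2, Ifi44, Ifitm2, Oas1a, Oas3, Rsad2, Slfn5, Slfn8 and Trim30a. Ifit2, Oasl2 and Slfn2, described below with large differences, had a window without a match.

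Of 2208 wells, 2028 were kept because 1000 genes or more reached an FPKM of 1, from 41 to 96 per mouse. FPKM are fragments scaled by transcript length and by the mapped fragments of the well, so levels are per length and the depth behind a value is unknown. The median kept well held 2364.5 genes (mouse medians 1537.5 to 2994). All 10 microglial markers, P2ry12 and Tmem119 among them, were detected in at least 70.2% of the wells of every group on average. The well numbered first for a mouse (25 wells) held over 8000 genes in 19 mice and up to 37 of the 38 members, and the labels do not say if each of them held 1 cell. CKp25 mouse 3 at 6 weeks stood apart with 52 of 89 wells kept and the lowest level of the 4 mice in 32 of 37 members. Results that rest on these wells or on that mouse are given with and without them. The labels do not say how reads shared by close copies were counted, so the values of Ifit3, Oas1a, Slfn8 and Trim30a, which have such neighbours, are uncertain to that extent.

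The effectors did not pass the test between strains before induction or at 1 week, were high in CKp25 at 2 weeks, and were still high at 6 weeks. Values are the mean over a mouse's wells of log2(FPKM + 1), and differences are CKp25 minus CK on that scale ± standard error from limma, a scale that shrinks differences where FPKM is low. At 2 weeks 32 of 37 members rose (limma, adjusted p under 0.05) and 0 fell, while 6.14% of all 9435 tested genes were called higher. Their median difference was 1.68 (0.4 to 7.36), against 0.00 over all genes. Of the 37 members, 18 passed the filter on low values only through CKp25 mice at 2 or 6 weeks, where they were high, Ifit1, Oasl2, Ifitm3 and Ifi27l2a among them, so the counts and medians at those weeks describe the members and are no evidence by themselves. Of the 19 that also passed in the other 18 mice, 15 rose at 2 weeks and 12 were higher at 6 weeks. Every CKp25 mouse lay above every CK mouse for 35 of 37 members, which held for 12.9% of all genes.

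**Figure D1:**
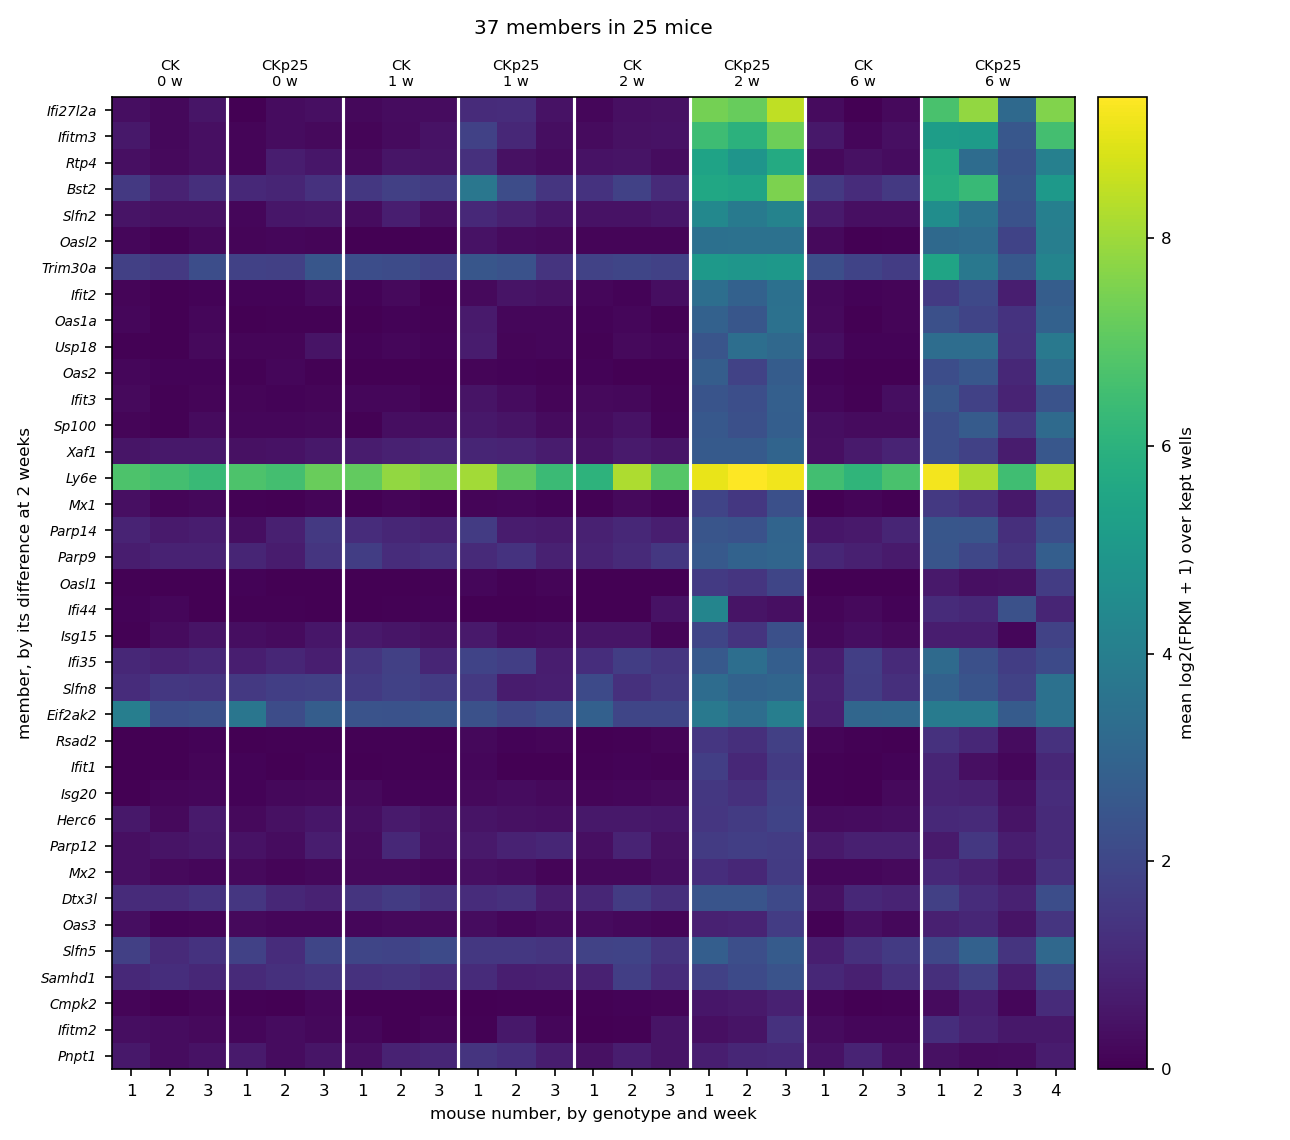
Mean log2(FPKM + 1) over kept wells (colour) of the 37 tested members (rows, by their difference at 2 weeks) in each of the 25 mice (columns, by week and strain). The 3 CKp25 mice at 2 weeks and 3 of the 4 CKp25 mice at 6 weeks are brighter than the rest in nearly all rows. Ly6e is high in every mouse, and Ifi44 is high in CKp25 mouse 1 at 2 weeks.

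All 3 IFIT genes, whose products bind viral RNA and block its translation, rose at 2 weeks. Ifit2 was at 3.37, 2.91 and 3.46 in the CKp25 mice and at 0.18, 0.10 and 0.34 in the CK mice. Its difference was 3.04 ± 0.25 (limma, adjusted p = 7.30e-12), and the mice did not overlap. Ifit3 differed by 2.33 ± 0.23 (adjusted p = 5.23e-10). Ifit1 was at 1.72, 1.03 and 1.61 against 0.06, 0.09 and 0.04, a difference of 1.39 ± 0.15 (adjusted p = 1.18e-08), again without overlap. In FPKM, Ifit1 averaged 32.9 ± 15.2 (SD, n = 3) in CKp25 and 1.19 ± 1.83 in CK.

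The 3 genes of the ISG15 system also rose. Isg15, the ubiquitin-like modifier, was at 1.97, 1.41 and 2.29 in CKp25 and at 0.52, 0.52 and 0.14 in CK (1.5 ± 0.24, adjusted p = 3.37e-05). Usp18, which removes ISG15 from proteins and dampens signalling at the interferon receptor, was at 2.48, 3.37 and 3.17 against 0.07, 0.22 and 0.17 (2.86 ± 0.36, adjusted p = 1.17e-06). Neither gene's mice overlapped. Herc6, the mouse ligase for ISG15, differed by 1.08 ± 0.18 (adjusted p = 1.93e-05).

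The 5 oligoadenylate synthetase genes rose together. Oasl2, an OAS-like protein, had the smallest adjusted p of any member. Its CKp25 mice were at 3.46, 3.5 and 3.5, close to each other, and its CK mice at 0.14, 0.12 and 0.14, a difference of 3.36 ± 0.27 (adjusted p = 2.16e-12). That corresponded to 50.8 ± 2.38 FPKM against 0.994 ± 0.998. Oas1a (2.86 ± 0.24) and Oas2 (2.42 ± 0.31), which make the second messenger that activates RNase L, followed, then Oasl1 (1.68 ± 0.19) and Oas3 (0.95 ± 0.17). Their adjusted p ranged from 5.07e-12 in Oas1a to 6.24e-05 in Oas3.

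Mx1, Mx2, Rsad2 and Cmpk2 rose in CKp25 as well. Mx1, a dynamin-like GTPase, was at 1.93, 1.53 and 2.27 against 0.04, 0.25 and 0.09 in CK (1.78 ± 0.18, adjusted p = 9.98e-10), without overlap. Rsad2 (viperin, an enzyme that makes a chain-terminating nucleotide) differed by 1.44 ± 0.16 (adjusted p = 3.68e-09) and Mx2 by 1.06 ± 0.15 (adjusted p = 1.58e-06). Cmpk2, a mitochondrial nucleotide kinase beside Rsad2 in the genome, had a small difference of 0.61 ± 0.14 (adjusted p = 0.00334).

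The membrane factors held 3 of the 4 largest differences. Ifitm3, which hinders fusion of viral and cell membranes, was at 6.46, 6.03 and 7.30 in CKp25 and at 0.26, 0.41 and 0.46 in CK. The mice were far apart, by 6.22 ± 0.56 (adjusted p = 7.03e-09), or 463 ± 92.2 against 11.2 ± 5.7 FPKM. Rtp4, a chaperone of receptors, differed by 4.92 ± 0.45 (adjusted p = 2.23e-09), and Bst2 (tetherin, which holds budding virus at the cell surface) by 4.75 ± 0.65 (adjusted p = 9.00e-06). Ly6e, a lipid-anchored surface protein, was high in every mouse before any change and rose by 2.13 ± 0.55 (adjusted p = 0.00859). Its CKp25 mice were at 9.04, 9.36 and 9.15 and its CK mice at 6.04, 8.22 and 6.91, and its call was lost without CK mouse 1 of that week. Ifitm2 was at 0.38, 0.48 and 1.33 against 0, 0.05 and 0.48, so that the mice overlapped (0.55 ± 0.18, adjusted p = 0.047). That call was lost when any of 14 of the 25 mice was left out, CKp25 mouse 3 of that week among them, with adjusted p from 0.00519 to 0.631 over all settings. Ifitm1 reached an FPKM of 1 at 2 weeks in 0.702% ± 0.608 of CKp25 wells and in 0 of 284 CK wells and was not tested. A count of 0 allows a share of up to 1.06% by counting error over pooled wells alone, and RNA that was not captured adds to that.

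Of the 6 nuclear and nucleotide-directed factors, 3 rose. Trim30a, a ubiquitin ligase that restrains innate signalling, was at 5.01, 4.91 and 5 in CKp25 and at 1.84, 1.97 and 1.82 in CK, without overlap (3.1 ± 0.44, adjusted p = 1.66e-06). Sp100, a nuclear body protein, differed by 2.27 ± 0.25 (adjusted p = 4.66e-09) and the exonuclease Isg20 by 1.35 ± 0.15 (adjusted p = 3.68e-09). The other 3 did not pass. Eif2ak2, the double-stranded RNA-activated kinase, was at 3.78, 3.36 and 4.00 against 2.86, 1.96 and 1.97 (adjusted p = 0.0582). Samhd1, which depletes the nucleotides viruses need, was at 1.8, 2.12 and 2.40 against 0.86, 1.74 and 1.20 (adjusted p = 0.05). Every CKp25 mouse was above every CK mouse in both, and over the alternative settings the adjusted p ran from 0.0244 to 0.223 for Eif2ak2 and from 0.0149 to 0.515 for Samhd1. Pnpt1, a mitochondrial RNA exonuclease, was at 0.80, 1.01 and 1.09 against 0.43, 0.75 and 0.51 (adjusted p = 0.215).

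All 4 genes of the PARP group rose. Parp14, a mono-ADP-ribosyltransferase, was at 2.47, 2.36 and 3.02 against 0.87, 1.05 and 0.78 (1.72 ± 0.30, adjusted p = 7.05e-05). Parp12 was at 1.63, 1.73 and 1.65 against 0.38, 0.94 and 0.43 (1.08 ± 0.21, adjusted p = 4.15e-04). Neither overlapped between strains. Parp9 differed by 1.70 ± 0.29 (adjusted p = 5.82e-05), and its partner, the ubiquitin ligase Dtx3l, by 1.03 ± 0.29 (adjusted p = 0.0162). Dtx3l did not pass when CK mice 1 or 3 or CKp25 mice 1 or 2 of that week were left out singly.

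Slfn2 and Slfn8 of the 3 Schlafens, a family of growth-regulating and RNA-cutting proteins, rose at 2 weeks. Slfn2 was at 4.37, 3.81 and 4.20 against 0.46, 0.44 and 0.56 (3.64 ± 0.33, adjusted p = 3.88e-11). Slfn8 was at 3.31, 2.94 and 3.04 against 2.1, 1.29 and 1.56 (1.45 ± 0.34, adjusted p = 0.00332). Both were separated by strain, Slfn2 from a low and Slfn8 from a moderate control level. Slfn5 was at 2.79, 2.26 and 2.69 against 1.84, 1.90 and 1.40 and did not pass (adjusted p = 0.125).

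Of the 4 remaining genes 3 rose, among them the member with the largest difference of all. Ifi27l2a, which codes for a small mitochondrial membrane protein, was at 7.42, 7.19 and 8.46 in CKp25 and at 0.17, 0.38 and 0.42 in CK (7.36 ± 0.71, adjusted p = 1.37e-07). Its mean was 818 ± 163 FPKM against 10.2 ± 5.87. Xaf1, a pro-apoptotic factor, differed by 2.21 ± 0.27 (adjusted p = 8.22e-08) and Ifi35 by 1.48 ± 0.34 (adjusted p = 0.00244). Ifi44, of uncertain function, was the member that split the mice. It was at 4.27 in CKp25 mouse 1 and at 0.49 and 0.37 in mice 2 and 3, against 0, 0 and 0.46 in CK (adjusted p = 0.18). It was detected in 67 of 94 wells (71.3%) of mouse 1, in 9 of 96 (9.38%) of mouse 2 and in 5 of 68 (7.35%) of mouse 3. Mouse 1 was the highest of the 3 mice in 8 of 37 members and the lowest in 13.

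**Figure D2:**
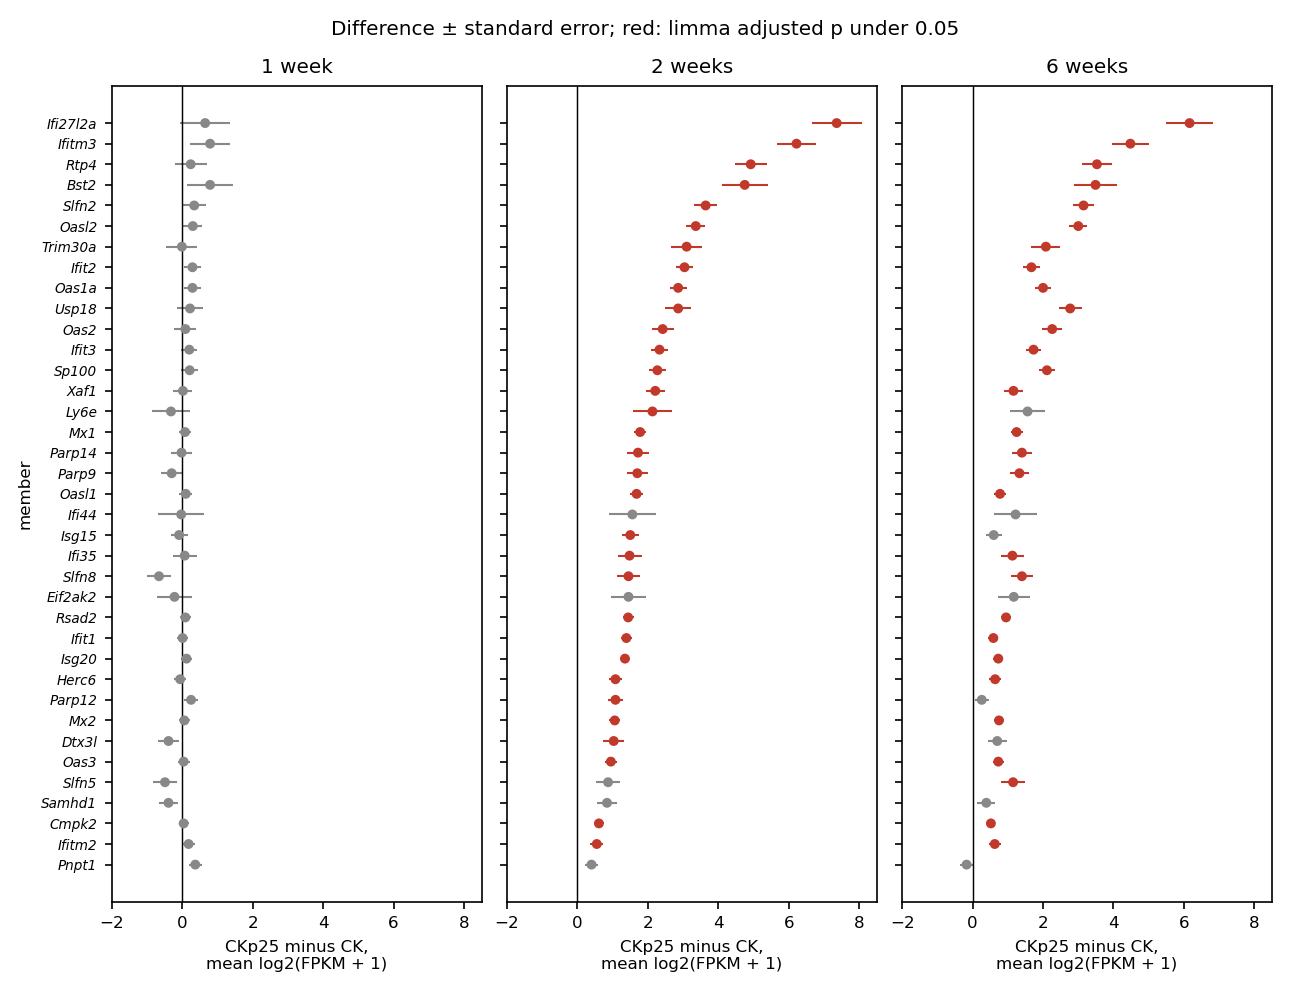
Difference in mean log2(FPKM + 1), CKp25 minus CK (x axis), with its standard error for each of the 37 members (y axis) at 1, 2 and 6 weeks. Red points passed limma's adjusted p under 0.05: 0 at 1 week, 32 at 2 weeks and 29 at 6 weeks.

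The order of onset was examined next. Before induction 0 of 37 members passed in either direction, with 0 at an unadjusted p under 0.05, 0% of all genes called higher, and a median difference of 0.00 (-0.18 to 0.31). Slfn8 was the 1 member with every CKp25 mouse above every CK mouse, which held for 4.88% of all genes. In CK mice over time, 0 of 37 members passed (limma), and 0 had an unadjusted p under 0.05, at 1, 2 or 6 weeks against CK at 0 weeks, where 0%, 0% and 0% of all genes were called higher.

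At 1 week 0 of 37 members passed in either direction (smallest adjusted p 0.299, 0 at an unadjusted p under 0.05), although 3.9% of all genes were called higher at that time. The median member difference was 0.08 (-0.66 to 0.79). In Ifi27l2a, Oasl2, Ifit2, Oas1a, Oasl1, Oas2, Rsad2 and Cmpk2 every CKp25 mouse lay above every CK mouse, 8 of 37 members against 12.7% of all genes. In Eif2ak2, Dtx3l, Samhd1, Slfn5 and Slfn8 every CKp25 mouse lay below, 5 of 37 against 7.94% of all genes. Ifi27l2a was at 1.15, 1.18 and 0.44 in CKp25 and at 0.21, 0.30 and 0.32 in CK at 1 week. Ifitm3 was at 1.8, 1.04 and 0.36 against 0.12, 0.26 and 0.45, so that mice 1 and 2 were high and mouse 3 lay among the controls. Oasl2 was at 0.45, 0.26 and 0.25 against 0.01, 0.02 and 0.04, apart but low.

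When the log2 was taken of each mouse's mean FPKM, which weights wells with high values, 1 member was called at 1 week, Oasl2 (2.12 ± 0.5, limma, adjusted p = 0.0248), and the median member difference was 0.26. The genotype effect grew in 0 of 37 members from 0 weeks to 1 week (1.08% of all genes, 0 members at an unadjusted p under 0.05). It grew from 1 to 2 weeks in 26 of 37 (1.28% of all genes), by 6.72 ± 1.00 in Ifi27l2a, 5.43 ± 0.79 in Ifitm3 and 3.06 ± 0.38 in Oasl2. With the log2 of mean FPKM this count was 3 (Oas2, Oasl1 and Rsad2), and in wells with 2000 to 3500 genes, a setting added after the data were seen, it was 17. Calls over all genes were also fewer there, 13 and 61 in place of 121. Ifi27l2a, Ifitm3 and Oasl2 are among the 18 members that passed the filter on low values only through CKp25 mice at 2 or 6 weeks. Such members entered this comparison already picked for being high later. The count of 26 therefore describes the members and is no evidence by itself. Of the difference at 2 weeks, a median of 5.75% was present at 1 week in the 32 members called at 2 weeks, from -45.3% in Slfn8 to 33.5% in Ifitm2. The 4 times do not resolve an order among members between 1 and 2 weeks.

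**Figure D3:**
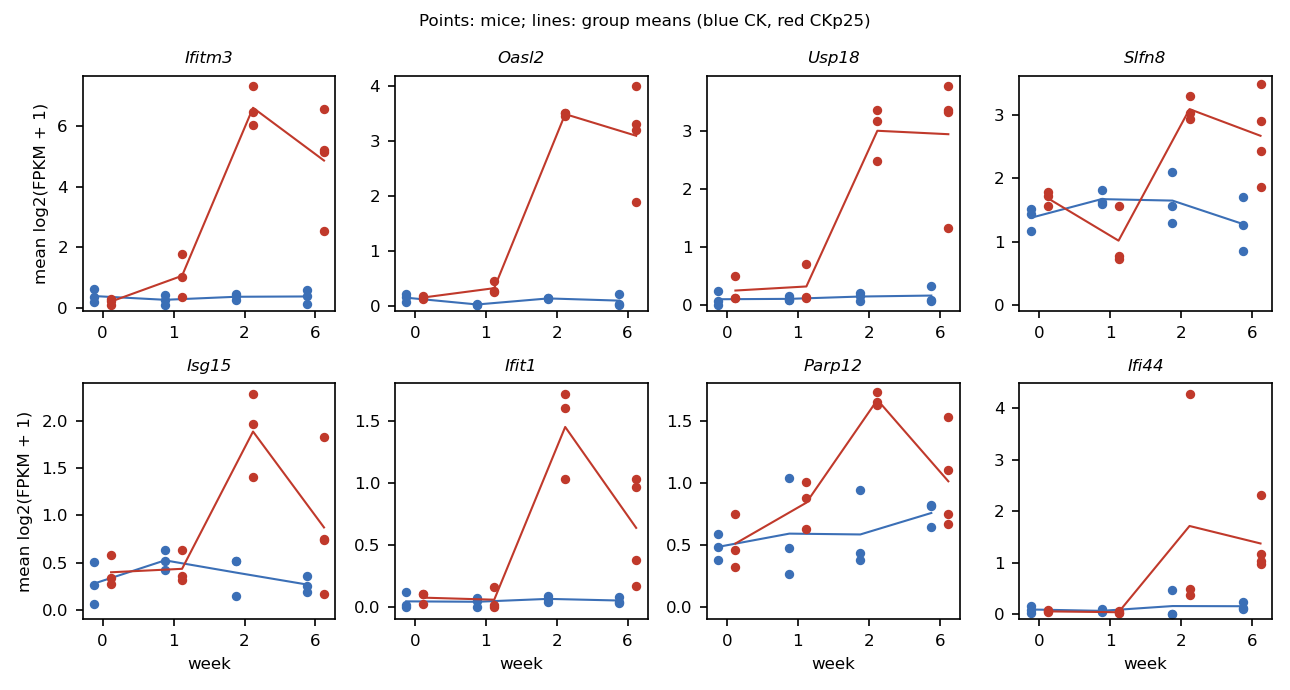
Mean log2(FPKM + 1) over kept wells (y axis, own scale per gene) against week (x axis, weeks spaced evenly) for 8 members, with a point per mouse and lines through group means. Oasl2, Usp18, Isg15 and Ifit1 are low in both strains at 0 and 1 weeks and high in CKp25 at 2 weeks. Ifitm3 is low at 0 weeks and high in CKp25 at 2 weeks, with CKp25 mice 1 and 2 above the CK mice at 1 week. The 6-week means of Usp18 and Slfn8 are near their 2-week means, those of Isg15, Ifit1 and Parp12 are lower, and Ifi44 has 1 high mouse at 2 weeks.

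At 6 weeks 29 of 37 members were higher in CKp25 (4.21% of all genes called higher) and 0 were lower. The median difference was 1.22 (-0.17 to 6.16), against -0.04 over all genes, and all CKp25 mice lay above all CK mice in 27 members (6.22% of all genes). Of the 32 members that rose at 2 weeks, 28 were again called at 6 weeks, all but Ly6e, Isg15, Parp12 and Dtx3l. By role the 29 members called at 6 weeks were 3 of 3 IFIT genes, 2 of 3 of the ISG15 system, 5 of 5 OAS genes, 4 of 4 with Mx1 and Rsad2, 4 of 5 membrane factors, 3 of 6 nuclear factors, 2 of 4 PARP genes, 3 of 3 Schlafens and 3 of the 4 remaining genes. Slfn5 was called at 6 weeks alone (1.15 ± 0.33, adjusted p = 0.0226). It did not pass when CK mice 1 or 2 or CKp25 mice 2 or 4 of that week were left out singly. Without CKp25 mouse 3, 32 members were called, among them all 29, and the median difference was 1.48. Leaving out single mice also ended 6-week calls in Cmpk2 (mouse 2 of either strain), in Ifi35 (CK mice 1 and 3 and CKp25 mouse 1) and in Ifitm2 (CK mice 2 and 3 and CKp25 mice 1 and 2).

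Each member's 6-week difference was set against its 2-week difference. In the 32 members called at 2 weeks the median ratio was 72.7% (23.5% to 114%), and 88.6% (31.6% to 127%) without CKp25 mouse 3. With all mice the share was under 50% in 4 members and over 80% in 10. The 3 highest were Ifitm2 (114%), Usp18 (97.1%) and Slfn8 (96.6%), and Oas2, Sp100 and Oasl2 followed with 93.6%, 93% and 89.4%. The 3 lowest were Parp12 (23.5%), Isg15 (40.4%) and Ifit1 (42.3%), next to Oasl1 (46.8%). Without CKp25 mouse 3 the 6-week differences of Isg15, Ifit1 and Oasl1 were 0.84, 0.74 and 0.9, each above 50% of the 2-week difference. That of Parp12 was 0.34 and stayed under 50%.

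Usp18 at 6 weeks was at 3.33, 3.36, 1.33 and 3.77 in the 4 CKp25 mice and at 0.34, 0.09 and 0.08 in CK (2.77 ± 0.33, adjusted p = 9.04e-07). Mouse 3 was below its group and still above every CK mouse. Slfn8 was at 2.91, 2.44, 1.86 and 3.49 against 0.86, 1.71 and 1.26 (1.40 ± 0.32, adjusted p = 0.00276), and Ifitm2 at 1.23, 0.90, 0.62 and 0.60 against 0.26, 0.18 and 0.18 (0.63 ± 0.17, adjusted p = 0.0158). Neither overlapped.

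Isg15 at 6 weeks was at 0.74, 0.75, 0.17 and 1.83 in CKp25 and at 0.19, 0.36 and 0.25 in CK (adjusted p = 0.128). Mouse 3 lay below every CK mouse, and the gene passed without it. Ifit1 was at 0.97, 0.38, 0.17 and 1.03 against 0.04, 0.03 and 0.08 (0.59 ± 0.14, adjusted p = 0.00579), without overlap. Parp12 was at 0.67, 1.53, 0.75 and 1.10 against 0.64, 0.81 and 0.82 and did not pass (adjusted p = 0.602). Mouse 4 was the highest CKp25 mouse in Isg15 and Ifit1, and mouse 2 in Parp12.

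The 6 members with the largest differences at 2 weeks, Ifi27l2a, Ifitm3, Rtp4, Bst2, Slfn2 and Oasl2, also had the 6 largest at 6 weeks, with and without CKp25 mouse 3. Without that mouse Bst2 (4.29 ± 0.46) stood before Rtp4 (4.04 ± 0.36). Ifi27l2a was at 6.66, 7.85, 3.21 and 7.58 against 0.28, 0 and 0.22 at 6 weeks (6.16 ± 0.66, adjusted p = 1.13e-06). Ifitm3 was at 5.20, 5.14, 2.54 and 6.56 against 0.61, 0.15 and 0.40 (4.48 ± 0.52, adjusted p = 9.54e-07). Oasl2 was at 3.19, 3.31, 1.88 and 3.99 against 0.22, 0.02 and 0.04 (3.00 ± 0.25, adjusted p = 7.92e-12). In all 3, mouse 3 was the lowest CKp25 mouse and did not reach the controls.

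The members that led 5 other roles at 2 weeks were also higher at 6 weeks. Slfn2 was at 4.59, 3.55, 2.36 and 4.04 against 0.68, 0.39 and 0.38 (3.15 ± 0.31, adjusted p = 4.13e-10), and Trim30a at 5.46, 3.76, 2.58 and 4.23 against 2.26, 1.87 and 1.66 (2.08 ± 0.41, adjusted p = 5.64e-04). Mx1 was at 1.57, 1.30, 0.60 and 1.72 against 0.03, 0.12 and 0 (1.25 ± 0.17, adjusted p = 8.78e-07). Ifit2 was at 1.60, 2.05, 0.80 and 2.77 against 0.20, 0.09 and 0.13 (1.67 ± 0.24, adjusted p = 2.42e-06), and Parp14 at 2.52, 2.45, 1.27 and 2.21 against 0.55, 0.64 and 0.96 (1.40 ± 0.28, adjusted p = 6.57e-04). No CK mouse reached a CKp25 mouse in these 5 genes.

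The change in the genotype effect from 2 to 6 weeks was tested directly, with fewer genes per well at 6 weeks as given above. With all mice the difference was smaller at 6 weeks in 35 of 37 members, by a median change of -0.48, against -0.04 over all genes. As lower 0 passed (limma, 0.0318% of all genes), with 13 at an unadjusted p under 0.05 and a smallest adjusted p of 0.25. The largest falls by p, none of which passed, were in Ifit2 (-1.38 ± 0.35), Ifit1 (-0.80 ± 0.21) and Oasl1 (-0.89 ± 0.25). Without CKp25 mouse 3 at 6 weeks these 3 falls were -1.04, -0.65 and -0.77. Without it the difference was also larger at 6 than at 2 weeks in Usp18 (3.31 at 6 weeks), Oas2 (2.68), Sp100 (2.41), Oasl2 (3.41), Slfn8 (1.67) and Cmpk2 (0.67). Without CKp25 mouse 4 at 6 weeks 4 members passed, Ifit1, Ifit2, Isg15 and Oasl1, with -0.93, -1.70, -1.21 and -1.18, and without CKp25 mouse 2 at 2 weeks 1 passed, Ifit1.

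Whether all cells or some carried the response was read from the number of members at FPKM of 1 or more per well. CKp25 wells at 2 weeks held 18.4 ± 1.11 members of 38 (SD over 3 mice) and CK wells 6.05 ± 0.498. The mice were at 18.2, 17.4 and 19.6 against 5.65, 6.6 and 5.89. At 6 weeks the CKp25 mice were at 14.4, 15.4, 9.96 and 17.2 and the CK mice at 4.2, 5.62 and 5.68. The strains did not overlap at either time, while at 1 week CKp25 mice (7.41, 6.9 and 4.96) and CK mice (5.39, 6.74 and 5.81) did.

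A well with 10 or more members was counted as a broad responder. At 2 weeks 88.3%, 81.2% and 89.7% of the wells of the CKp25 mice were broad responders, against 4.17%, 10.4% and 7.61% in CK (79 percentage points, 2-sided exact permutation p = 0.1, adjusted over 8 tests 0.2). At 6 weeks the CKp25 shares were 68.3%, 80.7%, 40.4% and 84% against 4.55%, 8.51% and 7.69% in CK (exact permutation p = 0.0571, adjusted 0.2). These are the smallest p that 3 against 3 and 4 against 3 mice allow, so none of these 8 tests could pass 0.05. With the first well of each mouse left out the mean shares were 86.3% at 2 weeks and 67.7% at 6 weeks, against 6.76% and 5.17% in CK. Without CKp25 mouse 3 the strains differed at 6 weeks by 70.7 in place of 61.4 percentage points. Among wells with 2000 to 3500 genes, of which CK mouse 1 and CKp25 mouse 3 at 6 weeks had 10 and 17, the shares were 85.6% ± 8.69 and 85.1% ± 14.9 in CKp25 at 2 and 6 weeks, and 7.63% and 4.97% in CK.

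**Figure D4:**
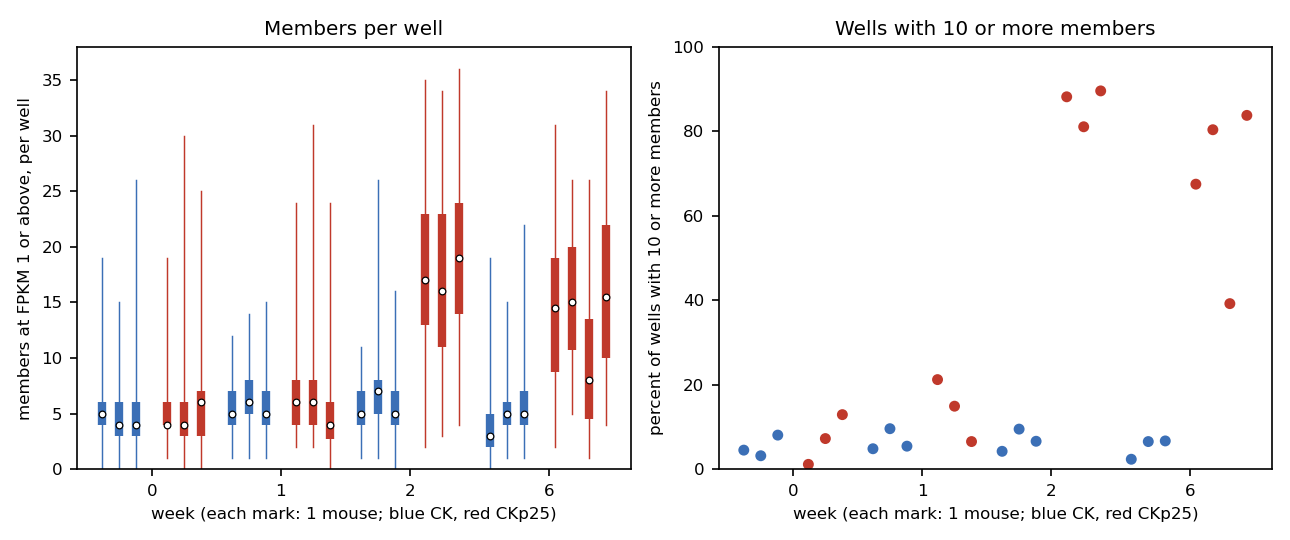
Left, members at FPKM 1 or above per well (y axis) in each mouse, with the first well left out: circles are medians, bars the middle 50% of wells and lines the full range. Right, the percentage of those wells with 10 or more members (y axis). CKp25 mice (red) lie above CK mice (blue) at 2 and 6 weeks, and mouse 3 of the 4 CKp25 mice at 6 weeks is the lowest of them with 39.2%.

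A small number of wells at 1 week already carried many members. With first wells left out, 15 or more members were found in 5 of 85, 6 of 87 and 3 of 92 wells of the CKp25 mice (5.35% ± 1.88) and in 0 of 83, 0 of 94 and 1 of 92 wells of the CK mice (0.362% ± 0.628). With first wells included the means were 6.41% and 1.07% (exact permutation p = 0.1, the smallest possible). Before induction the CKp25 mice held 1.12% to 2.35% such wells and the CK mice 1.05% to 3.37%. In wells with 2000 to 3500 genes there were 3 of 49, 2 of 53 and 2 of 43 in CKp25 and 0 of 59, 0 of 86 and 1 of 76 in CK. The 14 wells had more genes than the rest (medians of 3407, 3996 and 3165 in the 3 mice, against 2497, 2788 and 2133 over all their wells), whose part in this count was not tested beyond that window. P2ry12 was detected in 100% of them, and 1 of the 14 carried 3 or more markers of another cell type. With 10 or more members the shares at 1 week were 22.1%, 15.9% and 7.53% against 4.76%, 10.5% and 6.45% and overlapped (exact permutation p = 0.2).

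In those 14 wells Ly6e was found in 14, Bst2, Trim30a and Eif2ak2 in 13, Ifitm3 in 12 and Oasl2 in 11. Ifit1 was found in 1 of the 14, whereas 53 of 163 such wells held it at 2 weeks. The wells were picked by their number of members, so these counts describe them and test nothing. Over all CK mice and weeks, 12 of 1000 wells held 15 or more members, spread over 9 of 12 mice.

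Detection differed greatly between members in the same cells. At 2 weeks in CKp25 7 members were found in at least 75% of wells, namely Ly6e (100%), Trim30a (87.8% ± 2.39), Ifi27l2a (81.9% ± 4.42), Bst2 (78.2% ± 8.79), Eif2ak2 (77.9% ± 3.54), Ifitm3 (76.6% ± 5.32) and Rtp4 (76% ± 4.53). Another 20 were found in 30% to 75% of wells, Oasl2 in 60.6% ± 1.2 and Isg15 in 30.5% ± 7.03, and 11 in fewer, Ifit1 in 24.3% ± 4.84 and Cmpk2 in 12.8%. Of the 7, Ly6e and Eif2ak2 were also found in 93.7% and 63% of CK wells, while Ifi27l2a and Ifitm3 were found in 4.6% and 5.65%. At 6 weeks the median member was found in 36.4% of CKp25 wells, against 5.85% of CK wells, and at 2 weeks in 47.8% against 7%. A well without a gene may hold RNA that was not captured, since Gapdh, which nearly every cell uses, was listed at 0 in 19.4% of kept wells. Actb, another such gene, was at 0 in 0% of them, so such loss differs between genes.

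**Figure D5:**
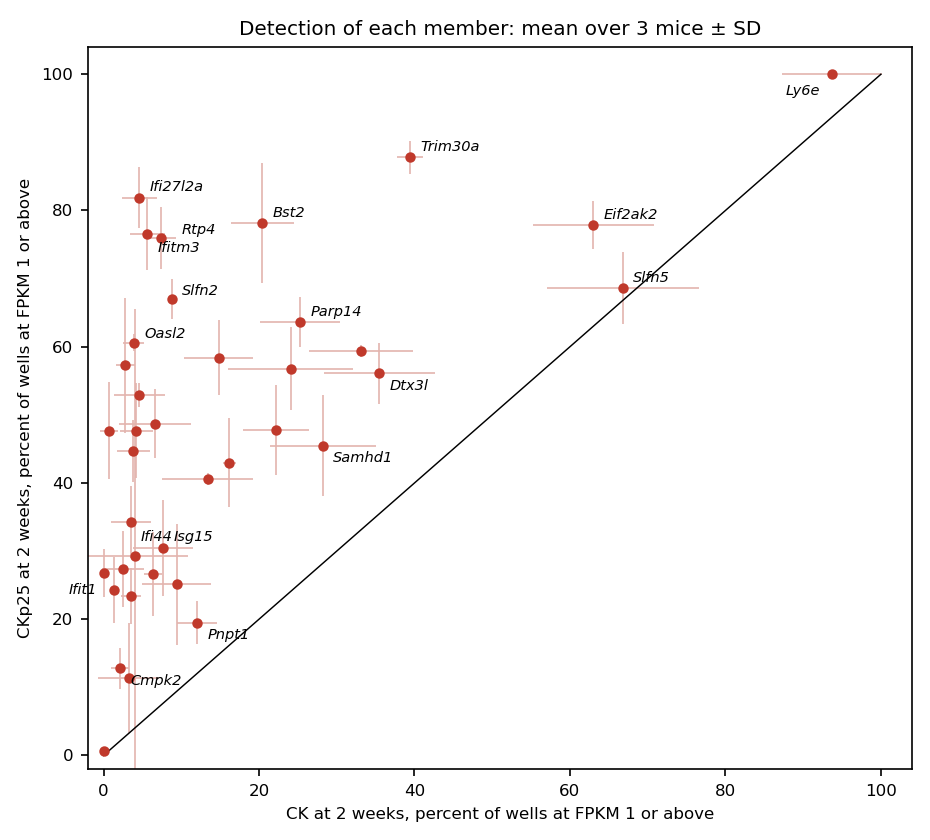
Percentage of wells with each of the 38 members at FPKM 1 or above in CK (x axis) and CKp25 (y axis) mice at 2 weeks, as means over 3 mice with SD, with the line of equal shares. Ifi27l2a, Ifitm3 and Rtp4 lie at under 10% in CK and above 75% in CKp25, Slfn5 lies near the line, and Ifi44 has the widest spread.

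The share of wells was above that in CK in all 28 members compared at 2 weeks, and the level in those wells in 22. The 22 leave out Pnpt1, at 24.5 against 24.4 FPKM, whose ratio of levels was 1 after rounding. In the 28 members found in at least 10 wells of each strain at 2 weeks (first wells left out), the share of wells was a median of 3.54 times that in CK (1.02 to 20.8), and the median FPKM among wells with the gene 2.19 times (0.626 to 10.6). The ratio of shares was the larger one in 23 of the 28. These values pool the wells of a strain and carry no test. Slfn2 was found in 66.9% against 8.18% of wells, with medians of 65.8 and 75.8 FPKM where found. Ly6e had medians of 624 against 207 FPKM where found and a ratio of shares of 1.06, and Slfn5, which did not pass at 2 weeks, medians of 11.5 against 4.82 FPKM and a ratio of 1.02. Usp18 was found in 47.4% against 4.27% of wells and with medians of 81.4 and 7.71 FPKM.

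Members went together in single wells. In CKp25 at 2 weeks, for each of the 35 members with at least 5 wells with and without it in every mouse, wells with the member held more of the others than wells without it, in all 3 mice. The median difference was 7.13 members (2.59 in Ifitm2 to 9.51 in Cmpk2). Wells with Isg15 held 24.3 ± 1.27 other members and wells without it 15.3 ± 0.715. Among wells with 2000 to 3500 genes the difference was 5.52 (2.4 to 9.64) in 32 members, all above 0 in every mouse. At 6 weeks it was 5.56 in 27 members at all depths, 26 of them above 0 in every mouse, and 3.71 in 12 members in that window, 11 of them above 0 in every mouse.

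The variance of the number of members over wells was set against the sum it would take if members were detected independently at their own shares. The variance was 7.77 to 8.65 times that sum in the 3 CKp25 mice at 2 weeks and 4.63 to 8.25 times at 6 weeks, against 1.64 to 2.89 and 2.29 to 3.81 times in CK at those weeks. At 1 week it was 4.49 to 4.71 times in CKp25 and 1.62 to 1.94 in CK. Before induction it was 2.01 to 4.88 in CKp25 and 2.2 to 4.33 in CK. At all depths the 1-week CKp25 mice thus lay within the range of CKp25 mice before induction. In wells with 2000 to 3500 genes the variance was 6.57 to 7.37 times that sum in CKp25 at 2 weeks and 1.38 to 3.04 times in CK. In that window CKp25 mice 1, 2 and 3 were at 3.86, 2.46 and 4.77 times at 1 week. Before induction they were at 0.846, 2.5 and 3.5 times. The CK mice were at 1.48 to 1.77 times at 1 week and 1.89 to 4.53 before induction. The number of members went with the number of genes in a well (Pearson r over the wells of a mouse 0.55 to 0.62 in CKp25 at 2 weeks, and 0.13 to 0.39 in the narrower window), and members, genes and wells share their library depth.

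The rest of the interferon pathway was read from lists that are no part of the 38. Of 13 tested Irf and Stat factors 4 rose and 0 fell at 2 weeks, with a median of 0.19. Among them were Irf7, an inducible amplifier of interferon production (4.37 ± 0.43, limma, adjusted p = 6.37e-08), Stat2 (2.28 ± 0.30) and Irf9 (1.34 ± 0.35). At 6 weeks 3 of the 13 were higher, and at 1 week 0. Of 15 nucleic acid sensors 7 rose at 2 weeks, Ifi204 (3.25 ± 0.32), Zbp1 (2.57 ± 0.31), Dhx58 (2.19 ± 0.28) and Adar (1.65 ± 0.32) among them, and 1 fell, Tmem173 (STING, -1.64 ± 0.47, adjusted p = 0.0194). Tmem173 was also lower at 6 weeks (-1.74 ± 0.44, adjusted p = 0.00838), when 6 of the 15 were higher.

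Of 9 tested interferon-inducible GTPases 5 rose at 2 weeks, Irgm1 (2.47 ± 0.38) and Gbp2 (0.73 ± 0.12) among them, and Gbp7 fell (-0.89 ± 0.26, adjusted p = 0.0198). Of 18 listed ligands, receptors and their kinases and suppressors, 8 passed the filter on low values and were tested. Of these 0 rose and 1 fell, Ifngr1, a chain of the interferon gamma receptor (-1.64 ± 0.50, adjusted p = 0.0316). The ligand Ifnb1 did not pass the filter and was not tested. It was found in 3 of 258 CKp25 wells at 2 weeks and in 0 of 1770 wells of the other 7 groups. That 0 allows a share of up to 0.169% (counting error only). Wells with Ifnar1, a chain of the type I receptor, made up 69.6% ± 5.22 in CKp25 and 77.7% ± 5.81 in CK at that time. Beside the 32 of 37 effectors called at 2 weeks, 4 of 13, 7 of 15, 5 of 9 and 0 of 8 tested genes of these lists were called higher. The lists named 15, 15, 15 and 18 genes. Of all genes 6.14% were called higher and 2.24% lower at that time, and no test compared the lists.

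Over the 25 mice, the 8 genes outside the 38 whose level followed the mean of the 37 members most closely were Zbp1, Phf11b, Irf7, Stat2, Ifi204, Pyhin1, Helz2 and Trex1, with Pearson r from 0.987 to 0.969. Each member was also set against the mean of the other members. Ifitm3 (0.989), Rsad2 (0.988) and Mx1 (0.986) were closest, and Pnpt1 (0.195), Ifi44 (0.561) and Eif2ak2 (0.641) furthest. These values describe mice that fall into groups of high and low level, and carry no test.

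Markers of cell identity were read in the same mice. At 2 weeks 5 of 10 microglial markers were lower in CKp25, P2ry12 (-3.20 ± 0.48, limma, adjusted p = 5.47e-06), Cx3cr1, Tmem119, Siglech and Sall1, and at 6 weeks 3. Of all genes 2.24% and 1.54% were called lower at those weeks. P2ry12 was found in 93.9% and 93.5% of CKp25 wells. The summed level of the microglial list was 76.82 to 79.11 in CKp25 and 84.27 to 93.77 in CK mice at 2 weeks. Of 7 monocyte markers 2 passed the filter on low values and were tested, and 1 of the 2 was higher at 2 weeks, Plac8 (0.92 ± 0.11, found in 14% ± 1.09 of wells), with Ccr2 in 8.56% and Ly6c2 in 2.17% and with 3 markers in 0% of wells. The summed monocyte level was 1.34 to 1.49 in CKp25 and 0.12 to 0.81 in CK. Of the 4 markers of plasmacytoid dendritic cells, which are known for making interferon, 1 could be tested and was higher, Cox6a2 (1.10 ± 0.17 at 2 weeks and 1.60 ± 0.16 at 6 weeks), while 3 of the 4 were in 0% of CKp25 wells at 2 weeks. Kdr, the 1 tested of 6 endothelial markers, was higher by 0.34 ± 0.09 at 2 weeks. Of 6 markers of border-associated macrophages 2 were tested and 0 called, but the summed level of the list at 6 weeks was 1.8 to 2.09 in CKp25 and 0.74 to 1.45 in CK mice, without overlap, with Ms4a7 in 7.5% against 3.32% of wells. The part of these markers in the effector result was not tested beyond 1 setting. Without the 56 wells that carried 3 or more markers of another cell type, a setting added after the data were seen, 32 members were called at 2 weeks and 28 at 6 weeks.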

How the data were processed

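Single hippocampal cells were sorted into 96-well plates and made into Smart-seq2 libraries, per the labels' protocols. The authors deposited a table of FPKM values, made with Cufflinks 2.2 on mouse build mm9 per the submitters' processing notes. The aligner's version, the annotation and the filters are not given in the sources used here. Depth per well is unknown from FPKM, and the series' design text gives a median of 251353 mapped reads per cell. All 2208 columns matched a sample, and 0 had none.

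A well was kept where 1000 or more genes reached an FPKM of 1 (2028 wells, 91.8%), and 180 were left out. No doublet caller was run. For each mouse the mean over wells of log2(FPKM + 1) was taken, with a pseudocount of 1. The 9435 genes that reached an FPKM of 1 in 10% or more of the wells in 3 or more mice were fitted with limma 3.58.1 (R 4.3.3, trend and robust options) on 25 mice in 8 groups, with 17 residual degrees of freedom. The p-values are 2-sided and Benjamini-Hochberg adjusted over all 9435 genes, with a threshold of 0.05, and the procedure was tested on simulated data. Members per well were compared over mice by exact permutation tests. Python 3.11.15, numpy 2.4.6, pandas 2.3.3, scipy 1.17.1 and matplotlib 3.10.9 were used. Promoter windows came from RefSeq (GRCm38.p6), not the build of the FPKM table.

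The members, the lists and the tests were chosen with earlier results of these data known. Values per mouse were given for the member of each role with the largest difference at 2 weeks and for the 3 highest and 3 lowest ratios of the 6-week to the 2-week difference. Outside the members, up to 4 genes per list and the 8 genes most like the members' mean were named. The members outside that rule shown per mouse, the 14 wells with many members at 1 week and the mice of Ifi44 were singled out after their values were seen. Alternatives were other pseudocounts, well and gene filters, scalings, fits and detection limits, a replicate block, and leaving out each mouse. Leaving out wells with 3 or more markers of another cell type, and the window of 2000 to 3500 genes for limma, were added after the data were seen. Values of some single genes in these lists are not reported here.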

Additional observations from a re-analysis of the deposited data

Results flagged for a closer look

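In the CKp25 group at 6 weeks, 2 members had a mouse far from the other mice of its group, in both cases mouse 3. Its Ifi44 level was 2.32, above the other mice, the nearest of which was at 1.16, and its Herc6 level was 0.51, below the other mice, the nearest at 1.07. The gap to the nearest mouse made up 0.862 and 0.941 of the group's range, past the limit of Dixon's test for 4 values. All 37 tested members were looked at in this group of 4, and chance alone marks about 1 in 20 such groups. The 2 marked of 37 are near that share. Ifi44 was the 1 member in which mouse 3 was the highest of the 4 mice.

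In 26 of 37 members, and in 1.28% of all tested genes, the genotype difference at 2 weeks exceeded that at 1 week by the interaction term (limma, adjusted p from 1.70e-06 to 0.0253), each given here as the growth of CKp25 minus CK in log2(FPKM + 1). The membrane factors grew by 5.43 in Ifitm3, 4.68 in Rtp4 and 3.95 in Bst2, and Ifi27l2a grew by 6.72. Among the OAS genes the growth was 3.06 in Oasl2, 2.57 in Oas1a, 2.33 in Oas2, 1.57 in Oasl1 and 0.91 in Oas3. It was 2.75, 2.13 and 1.38 in Ifit2, Ifit3 and Ifit1, and 2.64, 1.58 and 1.14 in Usp18, Isg15 and Herc6. It was 3.30 and 2.1 in the Schlafens Slfn2 and Slfn8, and 3.11, 2.06 and 1.22 in Trim30a, Sp100 and Isg20. Xaf1, Parp9, Parp14, Mx1, Rsad2 and Mx2 grew by 2.19, 2.00, 1.74, 1.70, 1.35 and 1.00. Of the 26 calls 2 held in every other setting, those of Oas2 and Oasl1, and most were lost with the log2 of mean FPKM. The call was lost when any of 5 mice was left out in Bst2, any of 7 in Oas3 and any of 4 in Parp14. Members that passed the filter on low values only through CKp25 mice at 2 or 6 weeks are counted in the 26. Ifi27l2a, Ifitm3 and Oasl2 are among them, so that count is no evidence by itself.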

How the results depend on the processing

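At 2 weeks 23 of the 32 called members kept the call in every other setting and 29 in every fit that left out a mouse, and at 6 weeks 21 and 25 of 29 did, with 0 reversed. Leaving out each mouse gave 29 to 33 members at 2 weeks, 26 to 32 at 6 weeks, 23 to 28 for the growth from 1 to 2 weeks and 0 to 4 for a fall from 2 to 6 weeks (0 with all mice). With the log2 of mean FPKM 1 member was called at 1 week, 25 at 2 weeks and 3 for the growth from 1 to 2 weeks, and in wells with 2000 to 3500 genes 17 for that growth, against 26. Of those 26 members 2 kept the call in every other setting and 23 in every fit that left out a mouse. The cause was not tested. The labels do not say if CK and CKp25 mice of the same number and week belong together, and the main fit did not pair them. Of 12 such pairs 8 correlated over 0.1 (-0.119 to 0.348 over the 12), and 8 were highest with their own number, so a pairing cannot be set aside. With a replicate block 34 members were called at 2 weeks, 28 at 6 weeks, 28 for the growth and 4 for the fall. These 4 were Ifit1, Ifit2, Isg15 and Oasl1, with differences of -0.93, -1.70, -1.21 and -1.18. In that fit CKp25 mouse 4 at 6 weeks, whose number no CK mouse shares, is alone in its block and adds nothing to the comparison. The same 4 differences were found without that mouse, so the 2 settings are not independent of each other.

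Members per cell differed by 11.7 to 12.8 at 2 weeks and 8.11 to 10.5 at 6 weeks when a mouse was left out, and the share with 10 or more by 77.4 to 81.6 and 56.2 to 70.7 percentage points. Where strains overlapped, the sign turned: members per cell ranged from -0.171 to 0.53 at 0 weeks (-0.0378 without CK mouse 2) and from -0.0514 to 1.17 at 1 week, and was -0.0182 at 1 week in wells with 2000 to 3500 genes. The share ranged from -0.993 to 4.87 at 0 weeks and from 4.47 to 11.8 at 1 week. It was -0.985 at 0 weeks with 15 or more members and -11.4 at 1 week with 5 or more. FPKM give no depth per well, so undetected and absent RNA cannot be told apart.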
